A study of Homo sapiens with 6 samples.

Results

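Extracellular ATP is broken down to adenosine, and adenosine is sensed and removed, by a small set of enzymes and receptors. The 10 human genes described here are NT5E, ENTPD1, ENTPD2, ENTPD3, ADORA1, ADORA2A, ADORA2B, ADA, ADK and P2RY2. They were chosen by symbol from the 58884 genes of the deposited table, with the values of these libraries already known, so their differences between lines are given as a description with no test. All 10 symbols were found, and each had 1 row. RNA was sequenced from untreated KYSE70 cells and untreated NRF2null-KYSE70 cells, with 3 libraries of each. KYSE70 is an established cell line from a human esophageal squamous cell carcinoma whose NFE2L2 gene carries the W24C mutation, and NFE2L2 encodes the transcription factor NRF2. NRF2null-KYSE70 was expanded from 1 CRISPR-Cas9 clone of KYSE70 with a frameshift in a coding exon of NFE2L2. By the study's description some NFE2L2 transcript variants were still expressed in it, and a faint, smaller NRF2 protein band remained. Every difference below is therefore one between this clone and its parental line, and an effect of the edit and a peculiarity of the clone cannot be told apart. Nothing in the labels says that the libraries of a line came from separate cultures, so their spread may be technical.

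As background, cells release ATP when they are stressed, stretched or damaged, and ATP acts on P2 receptors such as the G protein-coupled P2RY2. The ecto-nucleoside triphosphate diphosphohydrolases, ENTPD1 (CD39), ENTPD2 and ENTPD3, remove phosphates from ATP and ADP at the cell surface, and the GPI-anchored ecto-5'-nucleotidase NT5E (CD73) turns AMP into adenosine. Adenosine then acts on receptors that lower cyclic AMP (ADORA1) or raise it (ADORA2A and ADORA2B), until it is deaminated by adenosine deaminase (ADA) or phosphorylated by adenosine kinase (ADK). In tumors, CD39 and CD73 are best known for making the adenosine that restrains immune cells.

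The libraries held 52072801 to 63975313 reads counted in genes, and values are normalized counts, that is, reads after division by the library's own size factor, so that 1 read was worth 0.889 to 1.14. The targeted gene, NFE2L2, averaged 9928 ± 102 in the parental line against 6093 ± 319 in the edited clone (SD, n = 3 each). Its log2 fold change was -0.71 with an SE of 0.049 (limma adjusted p = 9.37e-08), so its RNA was reduced but still abundant. Fold changes divide NRF2null-KYSE70 by KYSE70 after 1 was added to each normalized count and are printed as log2, a scale on which differences of thinly read genes come out too small. All 9 epithelial and squamous markers examined were expressed in both lines, with a sum of 418200 to 429839 in KYSE70 and 328059 to 344912 in NRF2null-KYSE70. KRT5, KRT8 and TP63 in the clone were at 59.4%, 60.7% and 52.7% of the parental means (limma adjusted p = 5.41e-08, 2.55e-08 and 3.63e-09). KRT18 was at 97.2% (limma adjusted p = 0.418). EPCAM, CDH1, KRT6A, SOX2 and DSP were at 123%, 152%, 161%, 111% and 120% (limma adjusted p = 5.84e-05, 9.45e-06, 3.15e-08, 0.0132 and 0.0422). The markers thus did not move together. Of the 15994 genes with a mean of at least 10, 14.7% passed both thresholds (adjusted p below 0.05, and a log2 fold change of 1 or more in either direction). Without the fold threshold, 57.6% passed, and in 63.4% the library ranges of the lines did not overlap. Differences of modest size between these lines were therefore common among all genes.

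Of the 10 members, 8 reached a mean of 10, while ADORA2A and ADORA2B did not. ENTPD1 and NT5E were past both thresholds with higher values in NRF2null-KYSE70, and ENTPD3 was past both with lower values. Among all tested genes, 7.23% were past both thresholds upward and 7.43% downward, while 29.3% and 28.3% passed on adjusted p alone and 32.1% and 31.3% had library ranges that did not overlap. These 3 genes reached the mean of 10 only through the line in which they were high, so they had to differ, and nothing is read from their number. ENTPD2, ADORA1 and ADK differed by less and without overlap of the library ranges, and the ranges of ADA and P2RY2 overlapped.

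**Figure D1:**
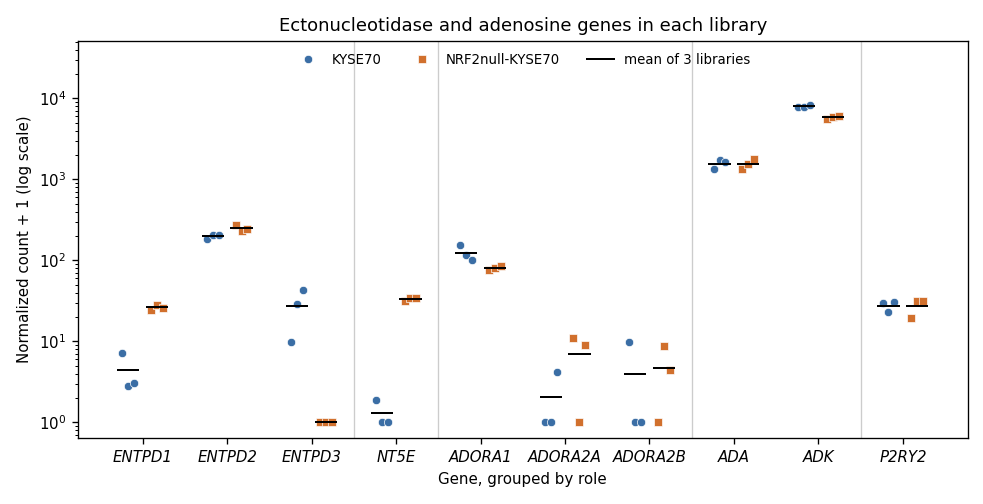
Normalized counts of the 10 members (horizontal axis) in each of the 6 libraries (vertical axis, normalized count + 1 on a log scale); points are single libraries of KYSE70 and NRF2null-KYSE70 and horizontal bars are the means of 3. NT5E and ENTPD1 stand near the bottom of the scale in KYSE70 and at 23.3 to 33.3 in NRF2null-KYSE70, whereas ENTPD3 is at 0 in all 3 NRF2null-KYSE70 libraries.

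The promoters of 3 members are shown. NT5E and ENTPD3 were read almost exclusively in 1 line, and ENTPD2 had the highest level among ENTPD1, ENTPD2 and ENTPD3 in both. Each sequence is the 250 bases before the start of the gene in RefSeq on GRCh38.p14, written 5' to 3' on the strand of the gene. For NT5E the start in RefSeq lies downstream of the start in the GENCODE annotation, so the bases shown fall inside the span given for the gene below. Capitals mark a match to TGACNNNGC, the core of the antioxidant response element to which NRF2 binds with small MAF proteins. NT5E lies on the plus strand (chr6:85449833-85450082), ENTPD3 on the plus strand (chr3:40386934-40387183) and ENTPD2 on the minus strand (chr9:137054062-137054311).
NT5E: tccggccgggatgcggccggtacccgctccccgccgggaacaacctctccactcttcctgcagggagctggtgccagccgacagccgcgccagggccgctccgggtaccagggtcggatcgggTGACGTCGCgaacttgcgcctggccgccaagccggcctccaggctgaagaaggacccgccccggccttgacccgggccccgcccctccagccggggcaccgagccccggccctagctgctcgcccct
ENTPD3: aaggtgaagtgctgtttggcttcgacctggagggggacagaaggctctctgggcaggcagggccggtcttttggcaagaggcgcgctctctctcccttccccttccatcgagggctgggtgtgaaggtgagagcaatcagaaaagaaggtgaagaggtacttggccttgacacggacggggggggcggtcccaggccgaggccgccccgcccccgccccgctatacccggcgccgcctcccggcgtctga
ENTPD2: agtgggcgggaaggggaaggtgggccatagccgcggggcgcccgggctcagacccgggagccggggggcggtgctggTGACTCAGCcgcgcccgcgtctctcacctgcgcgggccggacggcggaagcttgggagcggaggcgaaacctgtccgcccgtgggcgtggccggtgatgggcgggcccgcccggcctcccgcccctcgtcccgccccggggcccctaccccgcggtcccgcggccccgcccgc
G and C made up 75.2% of the bases shown for NT5E, 66% of those for ENTPD3 and 80.8% of those for ENTPD2. The search used both strands of windows from 250 bases before to 50 bases after the start. It covered TGACNNNGC, TGACGTCA, the full cyclic AMP response element, and ACGTG, 1 form of the core of the hypoxia response element. GCGTG, the other form of that core, was not searched for, and it occurs in the bases shown for ENTPD2. RefSeq gave 13 such windows for 8 members, 5 of them for ENTPD1 and 2 for ADK, and ADORA2A and P2RY2 had no entry. TGACNNNGC was found in 1 window each of NT5E, ENTPD2 and ADK, and it was found in 13.3% of the windows of all genes. The match at NT5E read TGACGTCGC, that at ENTPD2 read TGACTCAGC and that at ADK, written on its plus strand, read GCGGGGTCA. The ENTPD2 match overlaps TGACTCA, the consensus of AP-1 factors. TGACGTCA and ACGTG were found in 0 of the 13 windows, against 1.85% and 21.4% of the windows of all genes. Such a match is a description of sequence only, and NRF2 binding was not measured.

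Among ENTPD1, ENTPD2 and ENTPD3, ENTPD2 had the highest level per length of gene in both lines. ENTPD2 (ENSG00000054179, chromosome 9 from 137048107 to 137054061 on the minus strand, hg38) prefers ATP to ADP as its substrate. Its normalized counts were 185, 204 and 205 in KYSE70 and 271, 232 and 245 in NRF2null-KYSE70. The lowest NRF2null-KYSE70 library was thus above the highest KYSE70 library, and the mean was 126% of the parental mean (log2 fold change 0.33 ± 0.14, SE). The 40 nearest tested protein-coding genes had a median log2 fold change of -0.29, and ENTPD2 stood at 0.62 relative to them.

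ENTPD1, which cuts ATP and ADP down to AMP with little release of ADP, was close to absent from KYSE70 and low in NRF2null-KYSE70. ENTPD1 (ENSG00000138185) lies on chromosome 10 from 95711779 to 95877266 on the plus strand. Its normalized counts were 6.23, 1.81 and 2.11 in KYSE70 and 23.3, 27.5 and 25.1 in NRF2null-KYSE70. The groups did not overlap, and KYSE70 library 1 was the highest of its line. The 11 reads in KYSE70 and 73 reads in NRF2null-KYSE70 gave a ratio of 7.31 after scaling for depth, with an exact 95% counting interval of 3.86 to 15.3. Library 1 held 7 of the 11 KYSE70 reads, and without it the ratio was 13 (4.86 to 48.9). The fitted log2 fold change was 2.72 ± 0.58 (SE), and the median of the 40 neighbouring genes was 0.10. ENTPD1-AS1, an antisense transcript that overlaps the gene on the minus strand, had 605, 624 and 529 normalized counts in KYSE70 and 480, 504 and 463 in NRF2null-KYSE70. It was thus lower where ENTPD1 was higher (log2 fold change -0.28 ± 0.099, SE, limma adjusted p = 0.0299). Whether the counting used strand was not stated, so reads of a gene and of its antisense partner cannot be told apart.

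Leukocytes express ENTPD1 and PTPRC (CD45), and PTPRC moved in the same direction, from 0, 0 and 1.05 normalized counts in KYSE70 to 42.6, 40.2 and 47.9 in NRF2null-KYSE70. Like ENTPD1, it reached the mean of 10 only through the line in which it was high. The other 6 immune markers, CD3E, CD14, CD68, MS4A1, NKG7 and LYZ, summed to between 0 and 14.8 in every library. MS4A1 and NKG7 were at 0 in all 6 libraries. The summed level of all 7 immune markers was 0 to 15.8 in KYSE70 and 42.2 to 58.2 in NRF2null-KYSE70. The part of other cells in the ENTPD1 values was not tested, and in bulk RNA fewer cells of a type and less RNA per cell cannot be told apart.

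ENTPD3, an ecto-ATPase with a preference between those of ENTPD1 and ENTPD2, was read only in KYSE70. ENTPD3 (ENSG00000168032) lies on chromosome 3 from 40387184 to 40428744 on the plus strand. Its normalized counts were 8.89, 28.1 and 42.2 in KYSE70 and 0, 0 and 0 in NRF2null-KYSE70. The KYSE70 libraries themselves spread widely, from 10 to 40 reads, for a total of 81. With 3 reads assumed in each NRF2null-KYSE70 library, the ENTPD3 level of NRF2null-KYSE70 would be 8.42-fold below the KYSE70 mean. That ratio takes the KYSE70 mean as exact and does not cover the spread of its libraries. ENTPD3-AS1, which overlaps ENTPD3 on the minus strand, had 111, 142 and 202 normalized counts in KYSE70 and 73.0, 66.7 and 82.2 in NRF2null-KYSE70. It was lower in the same line (log2 fold change -0.99 ± 0.234, SE, limma adjusted p = 0.00294), and within KYSE70 it had its lowest and its highest value in the same libraries as ENTPD3. The 40 genes nearest to ENTPD3 had a median log2 fold change of -0.44, so lower values were shared, to a smaller extent, by its neighbourhood.

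NT5E, the enzyme that completes the path to adenosine, was read almost only in NRF2null-KYSE70. NT5E (ENSG00000135318) lies on chromosome 6 from 85449584 to 85495791 on the plus strand. Its normalized counts were 0.889, 0 and 0 in KYSE70 and 30.4, 33.3 and 33.1 in NRF2null-KYSE70. The single read of KYSE70 stood against 93 reads in NRF2null-KYSE70, a ratio of 102 after scaling for depth with an exact 95% counting interval of 17.9 to 4090. Without KYSE70 library 1 the parental line had no NT5E read, and without KYSE70 library 2 the ratio was 66.9. The 3 NRF2null-KYSE70 libraries lay close together, with an SD of 1.62 around a mean of 32.3. The fitted log2 fold change of 4.75 ± 0.67 (SE) depends on the pseudocount, and the median of the 40 neighbouring genes was 0.13. NT5E is also used as a marker of mesenchymal cells, and COL1A2 and DCN, defining fibroblast genes, were at 0 in all 6 libraries. The 8 fibroblast and endothelial markers summed to 1316 to 1485 in KYSE70 and 753 to 1057 in NRF2null-KYSE70, but they did not move together. COL1A1 made up most of the sum and averaged 1232 in the parental line against 554 in the clone, whereas VWF averaged 142 against 353. PDGFRB was at 0 in KYSE70 and at 12.2 to 16.0 in NRF2null-KYSE70, and the part of other cells in the NT5E values was not tested.

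Of the 3 adenosine receptors among the members, only ADORA1, which couples to inhibitory G proteins, was read in every library. ADORA1 (ENSG00000163485) lies on chromosome 1 from 203090654 to 203167405 on the plus strand. Its normalized counts were 155, 114 and 99.1 in KYSE70 and 76.1, 79.4 and 84.5 in NRF2null-KYSE70. All NRF2null-KYSE70 libraries were below all KYSE70 libraries, and their mean was 65.2% of the parental mean. The log2 fold change was -0.59 ± 0.21 (SE), and the median of the 40 neighbouring genes was -0.08. KYSE70 library 1 was the highest of its line, and without it the log2 fold change was -0.41.

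The 2 receptors that stimulate cyclic AMP, ADORA2A and ADORA2B, were at the edge of detection in both lines. ADORA2A (ENSG00000128271, chromosome 22 from 24417879 to 24442357, plus strand) had normalized counts of 0, 0 and 3.16 in KYSE70 and 10.1, 0 and 7.99 in NRF2null-KYSE70. Its 3 and 17 reads gave a ratio of 6.24 with a counting interval of 1.81 to 33.3, but the library ranges overlapped at 0. ADORA2B (ENSG00000170425, chromosome 17 from 15945130 to 15975746, plus strand) had 8.89, 0 and 0 in KYSE70 and 0, 7.84 and 3.42 in NRF2null-KYSE70. Its 10 and 11 reads gave a ratio of 1.21 with an interval of 0.467 to 3.18, so a difference of that size was not detectable at this depth. Each of these genes was at 0 in 3 of the 6 libraries, in both lines, and so no difference between the lines is read from them. The remaining adenosine receptor, ADORA3, had no read in any library.

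The enzymes that remove adenosine had the highest levels per kilobase among the members, ADK by a wide margin. ADK (ENSG00000156110, chromosome 10 from 74151202 to 74709963, plus strand), which returns adenosine to the AMP pool, had normalized counts of 7879, 7934 and 8255 in KYSE70 and 5576, 5984 and 6105 in NRF2null-KYSE70. Its libraries were tight within each line and did not overlap between the lines. The mean in NRF2null-KYSE70 was 73.4% of the parental mean, with a log2 fold change of -0.45 ± 0.05 (SE) against a neighbourhood median of 0.09. ADK thus had the smallest standard error of the members, and its difference was below the fold threshold.

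ADA (ENSG00000196839, chromosome 20 from 44584896 to 44652252, minus strand), which deaminates adenosine to inosine, had normalized counts of 1349, 1715 and 1650.3 in KYSE70 and 1346, 1559 and 1779 in NRF2null-KYSE70. The lines overlapped over most of their range, and the mean in NRF2null-KYSE70 was 99.3% of the parental mean (log2 fold change -0.01 ± 0.11, SE). The gene overlaps PKIG, an inhibitor of protein kinase A, on the other strand. PKIG rose from 247, 287 and 292 to 563, 595 and 554 normalized counts (log2 fold change 1.05 ± 0.11, SE, limma adjusted p = 3.89e-06), and the part of PKIG reads in the ADA values was not tested. The ratio of the normalized counts of ADK to those of ADA was 5.16 ± 0.622 in the parental line against 3.80 ± 0.356 in the clone (SD, n = 3 each), with ranges of 4.63 to 5.84 and 3.43 to 4.14. That ratio compares lines and not the 2 enzymes, since it is not corrected for gene length.

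P2RY2 (ENSG00000175591, chromosome 11 from 73218281 to 73242427, plus strand), a receptor for ATP and UTP, was low in both lines. Its normalized counts were 28.5, 21.8 and 29.5 in KYSE70 and 18.3, 30.4 and 30.8 in NRF2null-KYSE70. NRF2null-KYSE70 held both the lowest and the highest library, and the log2 fold change was -0.03 ± 0.37 (SE). The 84 reads in KYSE70 and 76 in NRF2null-KYSE70 gave a ratio of 0.997 after scaling for depth, with an exact 95% counting interval of 0.721 to 1.38. AP002761.4, an overlapping gene on the same strand, had a log2 fold change of -0.27 (limma adjusted p = 0.716).

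To compare members with each other, each normalized count was divided by the summed length of the gene's annotated exons in kilobases. On this scale ADK stood first in KYSE70 at 1722 per kb, above 90.9% of tested genes, whose median was 196 per kb. ADA followed at 129, ENTPD2 at 75.0 and ADORA1 at 29.3 per kb, and the library ranges of these 4 genes did not overlap. ENTPD3 at 7.36, P2RY2 at 2.97, ADORA2B at 1.27, ADORA2A at 0.252, ENTPD1 at 0.236 and NT5E at 0.0654 per kb came next, each with a range that overlapped that of the next gene in the order. The first 4 places were therefore distinct, and below them neighbours in the order were not separated, although ENTPD3 and P2RY2 lay wholly above ADORA2A, ENTPD1 and NT5E.

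In NRF2null-KYSE70 the same 4 genes led, with ADK at 1264, ADA at 128, ENTPD2 at 94.5 and ADORA1 at 19.1 per kb. NT5E moved to the fifth place at 7.12 per kb and was separate from P2RY2 at 2.96 per kb. ENTPD1 at 1.76, ADORA2B at 1.61 and ADORA2A at 1.44 per kb overlapped, and ENTPD3 was at 0. The exons annotated for ADA add up to 12177 bases, whereas its canonical transcript has 1496 bases. With canonical lengths ADA stood at 1050.5 per kb in KYSE70, above 75.5% of tested genes in place of 42.8%, and the first 4 places were unchanged, but ENTPD1 in NRF2null-KYSE70 moved below ADORA2B and ADORA2A.

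**Figure D2:**
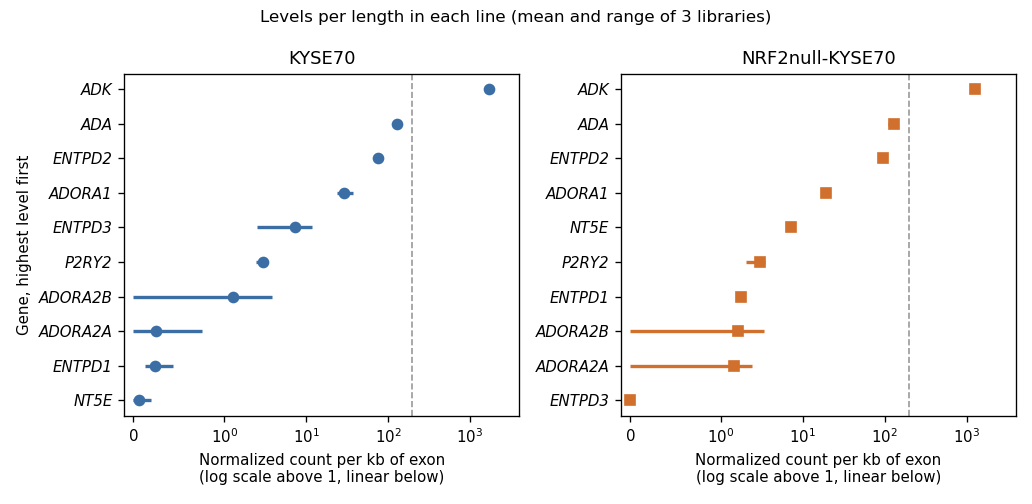
Level of each member per kilobase of annotated exon (horizontal axis, normalized count per kb, on a log scale above 1 and a linear one below) in KYSE70 (left) and NRF2null-KYSE70 (right), in order of level; points are means of 3 libraries, horizontal lines run from the lowest to the highest library, and the dashed line is the median tested gene. On exon length ADK alone lies above the median (with canonical lengths ADA does too), and NT5E and ENTPD3 exchange places between the lines.

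Shares were computed within ENTPD1, ENTPD2 and ENTPD3 and leave out the other ENTPD genes. ENTPD2 made up 86.7% to 96.0% of the summed level per kb of the 3 genes in KYSE70 and 97.9% to 98.4% in NRF2null-KYSE70. ENTPD3 held 3.40% to 13.2% of the sum in KYSE70 and 0 in NRF2null-KYSE70, whereas ENTPD1 held 0.148% to 0.595% and 1.56% to 2.13%. The sum itself was 73.0 to 89.4 per kb in KYSE70 and 89.9 to 104 per kb in NRF2null-KYSE70. ENTPD2 thus held most of this sum in every library. ADORA1 made up 90.7% to 100% of the summed level of the 3 adenosine receptors in KYSE70 and 85.0% to 88.2% in NRF2null-KYSE70, shares that rest on few ADORA2A and ADORA2B reads.

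**Figure D3:**
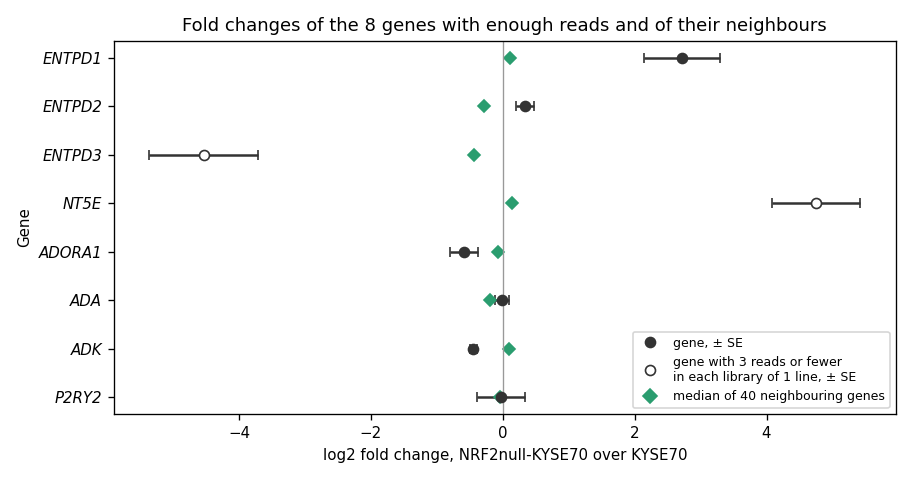
Log2 fold change of the 8 members that reached a mean normalized count of 10 (NRF2null-KYSE70 over KYSE70, horizontal axis) with standard errors as horizontal lines; open circles are genes with 3 reads or fewer in each library of 1 line, and diamonds are the median of the 40 nearest tested protein-coding genes. NT5E, ENTPD1 and ENTPD3 lie farthest from 0, and every neighbourhood median lies within 0.44 of 0.

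For the 3 members with a mean of at least 100 and the largest differences, the genes with the most similar pattern were found by Euclidean distance between centred log2 values over the 6 libraries. The nearest to ADK were POLR3F (distance 0.0413), GSTP1 (0.0434) and ATP5F1B (0.0453), the nearest to ENTPD2 were OAF (0.0860), KIF3C (0.0892) and CACHD1 (0.101), and the nearest to ADORA1 were CASC2 (0.224), CHKB-DT (0.228) and MST1 (0.229). The larger distances for ADORA1 go with its wider spread between KYSE70 libraries.

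The other genes of the pathway were taken from 7 lists with 107 genes in all, of which 68 reached a mean of 10 and 15 had no read in any library. Of these 68, 11 passed both thresholds, 5 higher and 6 lower in NRF2null-KYSE70, which is 16.2% against 14.7% of all tested genes. With the adjusted p alone 20 were higher and 25 lower (29.4% and 36.8%), against 29.3% and 28.3% of all tested genes. The median log2 fold change was 0.01, against -0.01 for all tested genes. In the share past both thresholds and in the median, these lists together were close to all tested genes. The share lower on adjusted p alone was larger. The lists were chosen with earlier results of these data known, so nothing is concluded about the pathway.

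Of the 17 genes listed as other ecto-nucleotide hydrolases, a list that also holds intracellular enzymes, 9 were tested. Among these, 0 passed both thresholds upward and 2 downward. ENPP2 (autotaxin), better known for making lysophosphatidic acid, fell from 366, 380 and 340 normalized counts in KYSE70 to 77.1, 69.6 and 49.1 in NRF2null-KYSE70 (log2 fold change -2.48, limma adjusted p = 2.16e-07). ENTPD8, another cell-surface ATPase, went from 24.9, 28.1 and 21.1 to 5.07, 17.7 and 6.85 (log2 fold change -1.41, limma adjusted p = 0.0328), a call that was lost when any of 5 of the 6 libraries was left out. Those of the rest with the most normalized counts were the intracellular ENTPD6 (log2 fold change 0.03, limma adjusted p = 0.605) and ENTPD7 (-0.90, limma adjusted p = 2.79e-07). ENTPD4 (0.20, limma adjusted p = 0.0468) and ENTPD5 (0.24, limma adjusted p = 0.0195), named here after their values were seen, were slightly higher.

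Of 15 other nucleotide and adenosine receptors only 4 were tested and 5 had no read. P2RX7, an ATP-gated channel, fell from 184, 172 and 139 to 82.2, 53.0 and 70.8 normalized counts (log2 fold change -1.27, limma adjusted p = 0.000277). The ADP receptor P2RY1 was lower with an adjusted p under the threshold and a fold change below it (-0.78, limma adjusted p = 9.76e-05), and the ATP-gated P2RX4 had a log2 fold change of 0.11 (limma adjusted p = 0.342). P2RY11, named after its values were seen, was higher by less than the fold threshold (0.59, limma adjusted p = 0.00486). Of 7 genes listed as nucleoside transporters, 4 were tested. SLC29A4 rose from 721, 648 and 641 to 1710.1, 1342 and 1562 (log2 fold change 1.19, limma adjusted p = 3.1e-07). The equilibrative transporters SLC29A1 (-0.85, limma adjusted p = 7.84e-08) and SLC29A2 (-0.40, limma adjusted p = 0.000452) were lower by less than the fold threshold.

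Among 16 genes listed as intracellular enzymes of adenosine and AMP metabolism, 11 were tested, of which 1 passed both thresholds upward and 0 downward. NT5C2, a cytosolic purine 5'-nucleotidase, rose from 7811, 8302 and 8017 to 18318, 18259 and 17192 normalized counts (log2 fold change 1.16, limma adjusted p = 6.5e-10). The other tested cytosolic nucleotidases, named after their values were seen, were NT5C3A at 0.49 (limma adjusted p = 1.97e-05) and NT5C at -0.18 (limma adjusted p = 0.021). These enzymes thus differed in direction, and nothing about the breakdown of AMP is read from them. AHCY, which releases adenosine from S-adenosylhomocysteine, had a log2 fold change of 0.19 (limma adjusted p = 0.0115) and the salvage enzyme HPRT1 one of -0.17 (limma adjusted p = 0.0245).

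Of 16 channels and carriers linked to ATP release, 10 were tested, and 2 passed both thresholds upward and 0 downward. ANKH, which exports pyrophosphate and ATP, had a log2 fold change of 1.23 and LRRC8A, the obligatory subunit of volume-regulated anion channels, one of 1.15 (limma adjusted p = 5.94e-09 for each). LRRC8D, a partner subunit of LRRC8A, was at 0.43 (limma adjusted p = 1.5e-05). The gap junction gene GJA1 was at -0.66 (limma adjusted p = 1.27e-07).

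Downstream of the receptors, 21 of 26 genes of the cyclic AMP machinery were tested, with 1 past both thresholds upward and 2 downward, and 3 higher and 11 lower on adjusted p alone. The latter are 14.3% and 52.4% of the tested genes of the list, against 29.3% and 28.3% of all tested genes. These shares also count GNAQ (0.37, limma adjusted p = 0.000435) and GNA11 (-0.30, limma adjusted p = 0.00131), G protein alpha subunits that do not act directly on cyclic AMP. GNAI1, an inhibitory G protein alpha subunit of the kind ADORA1 couples to, fell from 1191, 1143 and 1213 to 30.4, 24.5 and 20.5 normalized counts (log2 fold change -5.52 ± 0.17, SE, limma adjusted p = 5.47e-11). GNAI2, with the same role, averaged 12963 in KYSE70 and 8214 in NRF2null-KYSE70 as normalized counts (log2 fold change -0.66, limma adjusted p = 6.64e-08). The remaining subunit of this kind in the list, GNAI3, named after its values were seen, averaged 7077 and 7190 (0.02, limma adjusted p = 0.688), so the inhibitory subunits did not move as a group. PRKAR2B, a regulatory subunit of protein kinase A, fell (-1.67, limma adjusted p = 1.5e-05), and PDE4D, which degrades cyclic AMP, rose (1.85, limma adjusted p = 3.21e-05). GNAS, the stimulatory alpha subunit, was at -0.28 (limma adjusted p = 0.000171).

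Of 10 genes listed as cyclic AMP-responsive, 9 were tested, with 0 past both thresholds upward and 1 downward. On adjusted p alone 4 were higher and 2 lower (44.4% and 22.2% of those tested). The nuclear receptor NR4A2 fell from 365, 388 and 372 to 37.5, 33.3 and 37.7 normalized counts (log2 fold change -3.34, limma adjusted p = 6.45e-09). CREM, a cyclic AMP-responsive transcription factor, was at -0.33 (limma adjusted p = 0.000511), and the coactivator CRTC2 at 0.03 (limma adjusted p = 0.736). The 4 higher genes, named after their values were seen, were NR4A1, FOS, PER1 and DUSP1. They were at 0.79, 0.66, 0.35 and 0.34 (limma adjusted p = 0.000348, 0.0174, 0.00331 and 0.0318). Genes of this list therefore moved in both directions, with a median log2 fold change of 0.34.

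**Figure D4:**
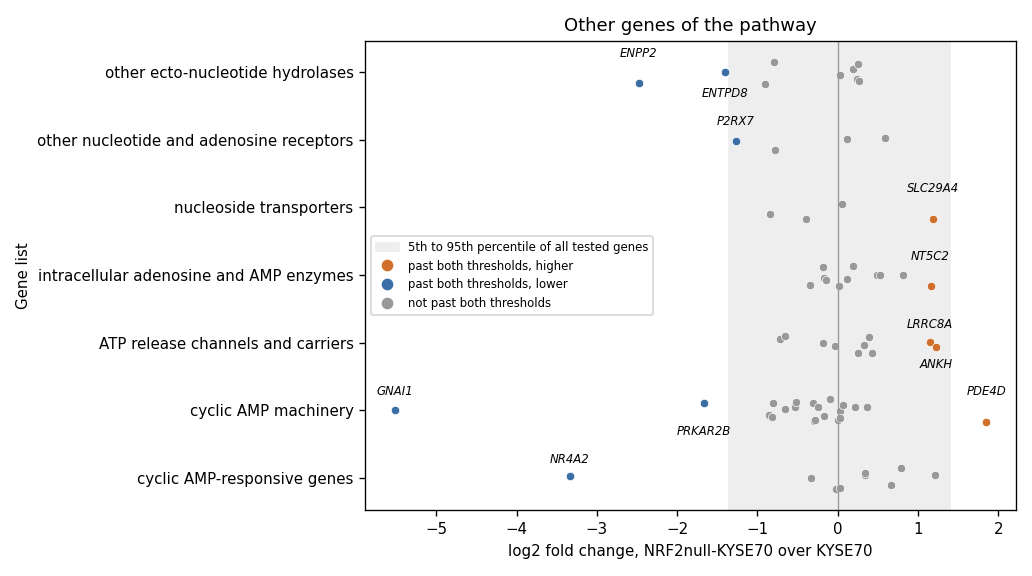
Log2 fold change (NRF2null-KYSE70 over KYSE70, horizontal axis) of the 68 tested genes of the 7 other pathway lists (vertical axis); each point is a gene, colored when past both thresholds, and the shaded band runs from the 5th to the 95th percentile of all tested genes. GNAI1 at -5.52, NR4A2 at -3.34 and ENPP2 at -2.48 lie farthest from 0, and 57 of the points are not past both thresholds.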

How the data were processed

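Sequencing libraries were made from total RNA of KYSE70 and NRF2null-KYSE70 cells. The authors aligned reads with STAR (version 2.6.90c) to hg38, obtained gene counts from featureCounts (version 1.5.1) and normalized the counts with DESeq2, and the submitters' processing notes also name cutadapt (version 1.12). The deposited values are a signal, normalized counts equal to reads divided by a size factor per library. Whole reads were recovered from it, since 100% of values in each library were whole multiples of the value of 1 read within 0.01. The columns carry no replicate number, so libraries are numbered in table order. Positions and exon lengths came from GENCODE v44 (58472 of 58884 identifiers found).

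Lines were compared with limma (version 3.58.1, R 4.3.3; lmFit and eBayes with a trend, two-sided) on log2(normalized count + 1) for genes with a mean of at least 10, with Benjamini-Hochberg adjustment over all 15994 genes. The test was checked on simulated data. The thresholds were an adjusted p of 0.05 and an absolute log2 fold change of 1. The members and the pathway and marker lists were chosen with earlier results of these data known. A listed marker is not reported here. Named were all members, NFE2L2, tested genes overlapping a member, up to 4 genes per list past both thresholds and the 2 most abundant of the rest, and the 3 genes nearest in pattern to 3 members. Neighbourhoods held 20 tested protein-coding genes on each side where there were as many. Alternatives were pseudocounts of 0.1 and 5, no filter, a filter at 50, TMM, total and quantile scaling, DESeq2 (version 1.42.0) and edgeR (version 4.0.16) on recovered reads, each library left out, neighbourhood centring and no fold threshold, and, chosen after seeing the data, canonical transcript lengths. Precision is limited by 3 libraries per line and, for members with few reads, by counting; intervals cover counting error only.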

Additional observations from a re-analysis of the deposited data

How the results depend on the processing

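NFE2L2 kept its sign and its side of both thresholds in all 16 alternatives, with log2 fold changes from -0.80 to -0.67. Among the members, ENTPD1 ranged from 1.89 to 3.15, ENTPD2 from 0.26 to 0.62, ENTPD3 from -7.79 to -2.48, NT5E from 2.82 to 7.24, ADORA1 from -0.73 to -0.41 and ADK from -0.54 to -0.41, each without a change of sign. The widest values of ENTPD3 and NT5E came from the pseudocounts of 0.1 and 5, and the 0.62 of ENTPD2 from neighbourhood centring. ADA (-0.12 to 0.18) and P2RY2 (-0.16 to 0.21) took both signs. With no fold threshold 9206 of 15994 tested genes passed (57.6%), in place of 2344 (14.7%). Of the 68 tested other pathway genes 45 passed in place of 11. Of the 8 tested members 5 passed in place of 3, and nothing is read from these numbers. With a filter at a mean of 50, 1511 of 13004 genes passed and 0 of 4 members, since ENTPD1, ENTPD3 and NT5E were then not tested. Without KYSE70 library 3, ENTPD3 was below the filter and 2 of 7 tested members passed, against 2235 of 15973 genes. Total scaling gave 1058 higher and 1343 lower genes in place of 1156 and 1188 and shifted the median log2 fold change of all genes by -0.07. ENTPD8 lost its call with no filter (adjusted p = 0.081), with neighbourhood centring (adjusted p = 0.0717) and with 5 of 6 libraries left out in turn. No paired analysis was possible because the columns of the table carry no replicate numbers.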
